A study of Mus musculus with 9 samples.

Results

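The genes described here are 9 neuropeptide precursors and 1 peptide receptor, measured as messenger RNA in the nucleus accumbens of the mouse: Tac1, Tac2, Tacr1, Cartpt, Cck, Nts, Crh, Oxt, Avp and Pmch. They were picked by gene name, with earlier results of these data known, and all 10 were found among the 21423 genes listed. All 10 also passed a minimum mean of 1 RPKM (reads per kilobase of gene model, scaled to the total of each library), as did 14051 genes in all. Because the choice was made with results known, their levels and differences are given as a description, without a test.

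The tissue came from adult male C57BL/6 mice, 2 to 5 months old. Cocaine mice were injected intraperitoneally with cocaine every day for 7 days and killed 24 h after the last dose. Withdrawal mice had the same 7 days of cocaine and then 8 days in the home cage without it. Saline mice had 7 days of saline (10 ml/kg) and were killed 24 h after the last injection. The labels give a cocaine dose of 10 or 20 mg/kg and tie neither dose to a library. RNA of 8 mice was pooled in equal parts per treatment. Each pool gave 1 library, sequenced in 3 lanes. The 3 lanes of a library are technical repeats, so each treatment has n = 1 library, and no difference below has a check against the spread between animals. The SD of a level, and the standard error (SE) of a difference, cover sequencing only. In a bulk punch of tissue, fewer cells of a type and less RNA per cell cannot be told apart.

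Neuropeptides are cut from larger precursor proteins in the secretory pathway, stored in dense-core vesicles and released to act on G protein-coupled receptors. In the nucleus accumbens, medium spiny neurons of the direct pathway make the Tac1 precursor, which yields substance P and neurokinin A, and many spiny neurons of the shell make the Cartpt precursor, whose name stands for cocaine- and amphetamine-regulated transcript. Cck is also made in large amounts by cortical neurons. Oxt, Avp and Pmch are made mainly by hypothalamic neurons whose fibres reach many brain regions, so their messenger RNA in an accumbens punch serves as a check on hypothalamic RNA.

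The stretches upstream of 4 of the genes are shown because Tac1, Cartpt and Cck were lower together in the cocaine library and Tac2, the gene of the other tachykinin precursor, was not called. Each is the 250 bases before the gene's start in RefSeq (build GRCm38.p6), 5′ to 3′ on the gene's strand. Capitals mark the short motif CGTCA of the cAMP response element (CRE), the site bound by the factor CREB, on either strand, and its full palindrome TGACGTCA, which holds the short motif on both strands.
Tac1, chr6:7554811-7555060, plus strand: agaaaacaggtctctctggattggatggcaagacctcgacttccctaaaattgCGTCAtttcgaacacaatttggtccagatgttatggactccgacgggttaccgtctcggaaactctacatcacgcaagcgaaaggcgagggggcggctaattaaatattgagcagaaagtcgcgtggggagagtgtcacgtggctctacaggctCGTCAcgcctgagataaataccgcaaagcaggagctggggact
Cartpt, chr13:99900684-99900933, minus strand: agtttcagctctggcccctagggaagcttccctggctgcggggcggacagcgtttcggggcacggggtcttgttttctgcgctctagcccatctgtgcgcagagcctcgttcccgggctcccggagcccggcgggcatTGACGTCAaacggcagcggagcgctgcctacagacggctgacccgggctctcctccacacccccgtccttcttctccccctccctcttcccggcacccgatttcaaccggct
Cck, chr9:121495695-121495944, minus strand: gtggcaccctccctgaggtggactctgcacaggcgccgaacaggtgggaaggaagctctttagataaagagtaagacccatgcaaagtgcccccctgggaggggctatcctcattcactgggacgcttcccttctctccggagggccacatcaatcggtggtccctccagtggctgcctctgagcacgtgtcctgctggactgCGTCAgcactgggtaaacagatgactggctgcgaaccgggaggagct
Tac2, chr10:127724228-127724477, plus strand: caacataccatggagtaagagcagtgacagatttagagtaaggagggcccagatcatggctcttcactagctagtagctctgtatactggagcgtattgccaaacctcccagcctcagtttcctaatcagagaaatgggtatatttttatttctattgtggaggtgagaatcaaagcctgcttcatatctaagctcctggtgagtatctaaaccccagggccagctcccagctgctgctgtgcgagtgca

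Cartpt was the only one of the 9 genes with a window in the table to hold the full CRE palindrome, 112 to 105 bases before the start. The palindrome stood in 1.55% of 32851 such 250-base stretches of all genes. The short CRE motif was present in 5 of the 9, namely Tac1, Cartpt, Cck, Nts and Tacr1, against 17.8% of all stretches. Tac1 held it at 197 and 43 bases before the start and Cck at 47 bases. The E-box CACGTG was present in Tac1, Cck and Avp, against 6.02% of all stretches, and the AP-1 site TGAGTCA (either strand) in Nts and Pmch, against 4.46%. The TATA motif TATAA (either strand) stood in Pmch alone of the 9, against 22.8% of all stretches. Tac2 and Oxt held none of these 5 motifs. For cocaine against saline, Oxt and Pmch were also called lower, and neither held a CRE motif. Nts and Tacr1 had no call and held the short motif, while Avp had no call and held none. The 4 stretches shown were picked by their calls, so a tie between motif and call was not tested. These calls took no account of gene length. Set against genes of like length, as given below, Tac1 kept its call for cocaine against saline (-0.61). Cartpt (-0.39) and Cck (-0.47) lost theirs. A match describes letters in this window and shows no binding.

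Tac1 had 17.6, 19.2 and 20.3 RPKM in the 3 lanes of the cocaine library, 22.6, 23.3 and 21.1 RPKM in the withdrawal library and 33.7, 31.8 and 31.4 RPKM in the saline library. The saline lanes were highest, the cocaine lanes lowest, and no lane of one library overlapped those of another. Cartpt had 33.7, 30.6 and 33.6 RPKM in cocaine, 41.8, 37.2 and 41.5 RPKM in withdrawal and 58.5, 50.6 and 52.3 RPKM in saline. Its libraries stood in the same order as for Tac1, again without overlap. Cck, the precursor of cholecystokinin, had 25.5, 25.7 and 24.1 RPKM in cocaine, 25.8, 16.8 and 19.7 RPKM in withdrawal and 38.7, 41.8 and 52.5 RPKM in saline. Both cocaine-exposed libraries lay below every saline lane, and they overlapped each other.

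Tac2, the precursor of neurokinin B, had 45.4, 50.4 and 53.2 RPKM in cocaine, 42.8, 38.7 and 46.3 RPKM in withdrawal and 45.8, 59.2 and 55.0 RPKM in saline, with lanes of all libraries overlapping. Tacr1, the NK1 receptor that binds substance P and that striatal cholinergic and somatostatin interneurons carry, had 6.72, 8.02 and 8.30 RPKM in cocaine, 8.58, 8.06 and 7.61 RPKM in withdrawal and 8.21, 7.60 and 5.70 RPKM in saline. It too overlapped throughout. The ratio of Tac1 to Tacr1, taken lane by lane, was 2.49 ± 0.12 in cocaine, 2.77 ± 0.13 in withdrawal and 4.60 ± 0.78 in saline (SD over 3 lanes, n = 1 library), and the saline lanes (4.11 to 5.51) lay above all lanes of the other libraries (2.40 to 2.89).

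Nts, the neurotensin precursor, had 12.8, 16.9 and 13.5 RPKM in cocaine, 13.9, 17.6 and 11.7 RPKM in withdrawal and 23.7, 20.1 and 16.0 RPKM in saline. The lowest saline lane lay inside the range of the other libraries. Crh, the precursor of corticotropin-releasing hormone, had 8.92, 6.60 and 7.89 RPKM in cocaine, 5.00, 5.34 and 5.47 RPKM in withdrawal and 8.60, 7.27 and 8.15 RPKM in saline. Its withdrawal lanes lay below all others, while cocaine and saline overlapped.

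Oxt, the oxytocin precursor, was the most abundant of the 10 genes in each library, at 82.0, 53.4 and 60.0 RPKM in cocaine, 74.1, 65.0 and 57.1 RPKM in withdrawal and 130.1, 128.6 and 102.2 RPKM in saline. Avp, the vasopressin precursor, had 26.1, 21.7 and 26.8 RPKM in cocaine, 20.2, 14.3 and 22.6 RPKM in withdrawal and 35.8, 33.8 and 37.4 RPKM in saline. For both genes every saline lane was above every lane of the other libraries. Pmch, the precursor of melanin-concentrating hormone, was the least abundant, at 1.01, 0.728 and 0.898 RPKM in cocaine, 0, 1.81 and 0.735 RPKM in withdrawal and 6.55, 3.78 and 2.63 RPKM in saline. Its levels rest on few reads, 16 in cocaine, 13 in withdrawal and 92 in saline over all lanes, with exact 95% Poisson intervals of 0.505 to 1.43 RPKM, 0.476 to 1.53 RPKM and 3.81 to 5.80 RPKM that cover counting error only. The withdrawal lane at 0 allows up to 0.723 RPKM (3 reads).

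**Figure D1:**
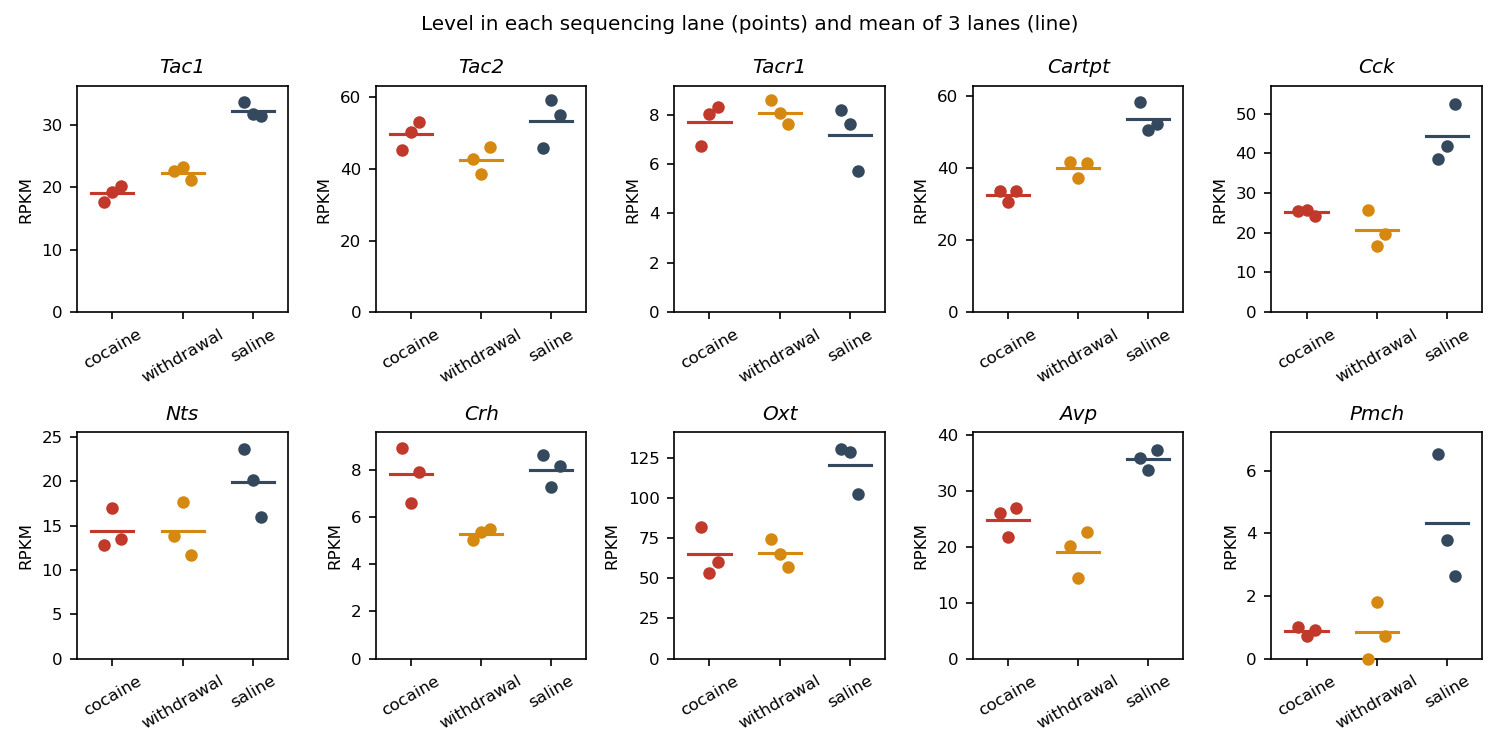
Level in RPKM (vertical axes, each from 0) of the 10 genes in the cocaine, withdrawal and saline libraries; points are the 3 lanes of a library and the line is their mean. The saline lanes stand above all others for Tac1, Cartpt, Cck, Oxt, Avp and Pmch, and the libraries overlap for Tac2, Tacr1 and Nts.

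RPKM is a value per length of gene model, so levels may be ordered between genes. In the cocaine library the order was Oxt, Tac2, Cartpt, Cck, Avp, Tac1, Nts, Crh, Tacr1 and Pmch, and only the neighbours Cck with Avp and Crh with Tacr1 had overlapping lanes. In the withdrawal library it was Oxt, Tac2, Cartpt, Tac1, Cck, Avp, Nts, Tacr1, Crh and Pmch. There Tac2 overlapped Cartpt, Tac1 overlapped Cck, Cck overlapped Avp, and Avp overlapped Nts. In the saline library the order was Oxt, Cartpt, Tac2, Cck, Avp, Tac1, Nts, Crh, Tacr1 and Pmch. Cartpt overlapped Tac2, Tac2 overlapped Cck, Crh overlapped Tacr1, and Tacr1 overlapped Pmch. Tacr1 and Crh were thus mid-range genes, the lowest except Pmch, at the 44.4 and 45.0 percentile of all genes tested in cocaine, 46.3 and 33.8 in withdrawal and 42.5 and 45.8 in saline. Oxt lay at the 92.7 percentile in cocaine, 92.7 in withdrawal and 95.9 in saline. The order depends on the gene models: that of Tac1 was 2907 bp long, against 874 bp for Cartpt and 849 bp for Cck.

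Cocaine against saline asked what differed 24 h after the last of the repeated doses. Differences are of mean log2(RPKM + 0.5), and a call, higher or lower, required a difference of 1.5 times or more with no overlap between lanes. Of the 10 genes, 5 were called lower and 0 higher, against 2.41% of all genes tested called lower and 2.93% called higher. Pmch passed the 1 RPKM minimum only through saline, which favours a lower call against saline, and the other 9 genes hold 4 of these calls. With lanes apart in the lower direction at any size there were 6 of 10, against 23.9% of all genes. The median of the 10 was -0.61, beside -0.05 for all genes tested. The called genes were Tac1 (-0.75 ± 0.066 SE), Cartpt (-0.71 ± 0.077), Cck (-0.80 ± 0.13), Oxt (-0.90 ± 0.22) and Pmch (-1.73 ± 0.35). Mean levels were 19.0 ± 1.4 RPKM in cocaine and 32.3 ± 1.2 RPKM in saline for Tac1, 32.7 ± 1.8 RPKM in cocaine and 53.8 ± 4.2 RPKM in saline for Cartpt, and 25.1 ± 0.86 RPKM in cocaine and 44.3 ± 7.2 RPKM in saline for Cck (SD over 3 lanes).

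Among the 5 genes without a call, Avp differed by -0.52 ± 0.10 with its lanes apart, at 24.9 ± 2.8 RPKM in cocaine and 35.7 ± 1.8 RPKM in saline, short of 1.5 times. Nts differed by -0.45 ± 0.20, and without saline replicate 3 it was called lower (-0.59). Tac2 (-0.10 ± 0.13), Tacr1 (0.10 ± 0.17) and Crh (-0.04 ± 0.14) differed by less than their SE. The sign of Tac2 turned when differences were centred by length (0.22), and that of Crh turned with the median difference set to 0 (0.01), at the same 75th percentile (0.03) and centred by length (0.24).

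Withdrawal against saline set tissue taken 8 days after the end of cocaine beside saline tissue taken at 24 h. No saline library was made at 8 days. Cocaine history therefore cannot be told apart from time since the injections or days in the home cage in this comparison. It shares the saline library with the comparison before, so their values are not independent. Here 4 of 10 genes were called lower and 0 higher, against 3.37% of all genes called lower and 3.96% called higher. Pmch is among them, and the other 9 genes hold 3. Lanes were apart in the lower direction for 7 of 10, against 25.6% of all genes. The median of the 10 was -0.54, beside -0.06 for all genes tested. Cck fell by 1.09 ± 0.22 on the log2 scale, to 20.7 ± 4.6 RPKM in withdrawal against 44.3 ± 7.2 RPKM in saline. Avp fell by 0.91 ± 0.20, to 19.1 ± 4.3 RPKM in withdrawal against 35.7 ± 1.8 RPKM in saline. Oxt fell by 0.87 ± 0.16, to 65.4 ± 8.5 RPKM in withdrawal against 120.3 ± 15.7 RPKM in saline. Pmch fell by 2.02 ± 0.73.

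Tac1 (-0.52 ± 0.051), Cartpt (-0.42 ± 0.082) and Crh (-0.56 ± 0.076) had lanes apart between withdrawal and saline but stayed under 1.5 times. Their mean levels were 22.3 ± 1.1 RPKM in withdrawal and 32.3 ± 1.2 RPKM in saline for Tac1, 40.2 ± 2.5 RPKM in withdrawal and 53.8 ± 4.2 RPKM in saline for Cartpt, and 5.27 ± 0.24 RPKM in withdrawal and 8.01 ± 0.68 RPKM in saline for Crh. Crh was called lower with a pseudocount of 0.1 (-0.59) and without saline replicate 2 (-0.62). Nts (-0.46 ± 0.23) was called lower without withdrawal replicate 2 (-0.61) or saline replicate 3 (-0.60). Tac2 differed by -0.32 ± 0.13, which became 0.01 when centred by length, and Tacr1 by 0.18 ± 0.16.

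Withdrawal against cocaine asked whether levels after 8 days differed from those at 24 h. It uses no saline lane but reuses the cocaine and withdrawal libraries, so its values are not independent of those above. None of the 10 genes was called in either direction by this rule, which makes no p-value. Of all genes, 0.47% were called higher and 0.548% lower. Tac1 (0.23 ± 0.071) and Cartpt (0.29 ± 0.069) had higher lanes without overlap in withdrawal, 2 of 10 genes against 8.66% of all. Crh (-0.52 ± 0.12) had lower lanes without overlap, 1 of 10 against 9.42% of all, at 5.27 ± 0.24 RPKM in withdrawal and 7.80 ± 1.2 RPKM in cocaine, and was called lower without cocaine replicate 2 (-0.62). Cck (-0.29 ± 0.18), Avp (-0.39 ± 0.21), Tac2 (-0.22 ± 0.10), Pmch (-0.29 ± 0.65), Tacr1 (0.07 ± 0.10), Oxt (0.02 ± 0.21) and Nts (-0.01 ± 0.20) had overlapping lanes.

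**Figure D2:**
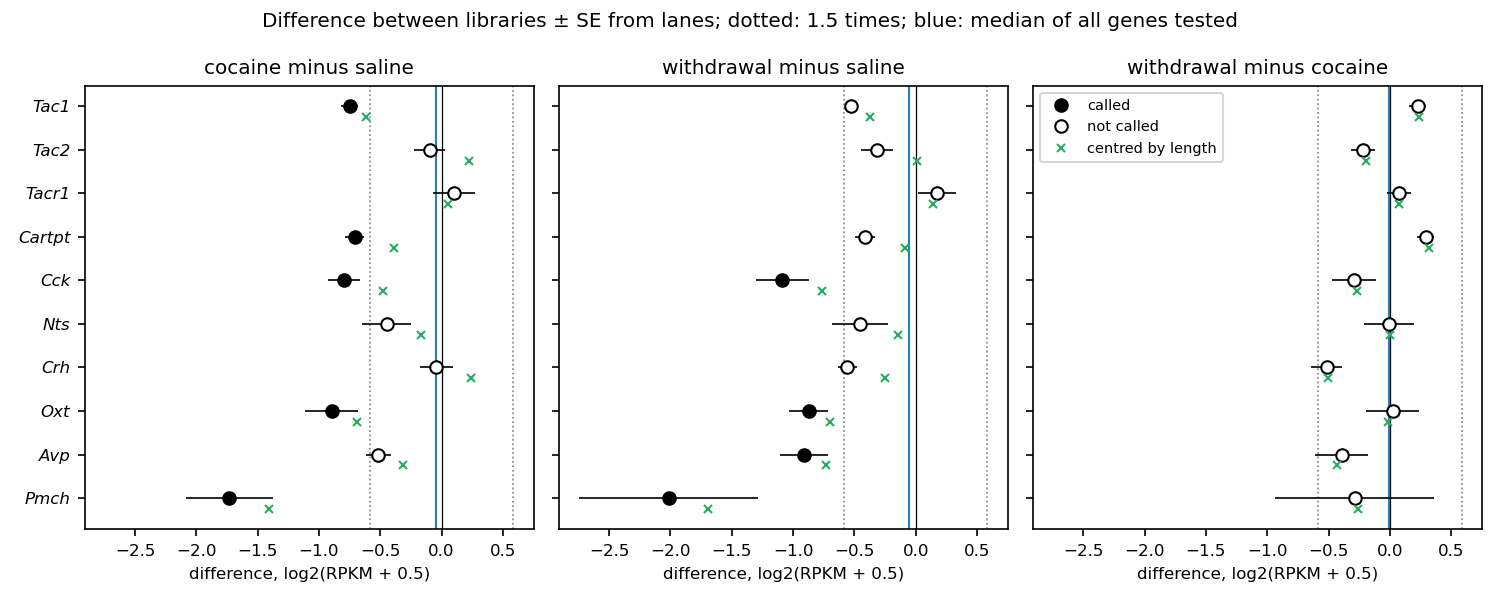
Difference in mean log2(RPKM + 0.5) of each gene (horizontal axis) for the 3 comparisons, with bars for the SE from lanes, dotted lines at 1.5 times and a blue line at the median of all genes tested. Filled points were called, and green crosses are the differences centred by gene length; the filled points are 5 genes for cocaine minus saline, 4 for withdrawal minus saline and 0 for withdrawal minus cocaine.

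Differences from saline went with the length of the gene model, and most peptide precursors are short. The 10 models ran from 560 bp (Oxt) to 5041 bp (Tacr1) with a median of 879 bp, and 9 of them were shorter than the median of 3531 bp over all genes tested. Over the 14051 genes, the Spearman correlation of length with the difference was 0.46 for cocaine minus saline, 0.42 for withdrawal minus saline and 0.01 for withdrawal minus cocaine, a description across genes that share the same libraries. In the length bins of Tac2, Cartpt, Cck and Pmch the median gene differed by -0.32 in cocaine minus saline and by -0.33 in withdrawal minus saline. In the bin of Tac1 it differed by -0.14 and -0.15, and in that of Oxt and Avp by -0.20 and -0.18. Its part in the differences was not tested beyond setting each bin's median to 0.

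With differences centred in this way, 3 of 10 genes were called lower for cocaine minus saline, against 0.697% of all genes: Tac1 (-0.61), Oxt (-0.69) and Pmch (-1.41). Cartpt (-0.39) and Cck (-0.47) fell short of 1.5 times. For withdrawal minus saline 4 of 10 were called lower, against 1.24% of all genes: Cck (-0.76), Avp (-0.73), Oxt (-0.70) and Pmch (-1.69). Tac1 (-0.38) and Cartpt (-0.09) were not called there. The median of the 10 was -0.35 for cocaine minus saline and -0.31 for withdrawal minus saline after centring.

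**Figure D3:**
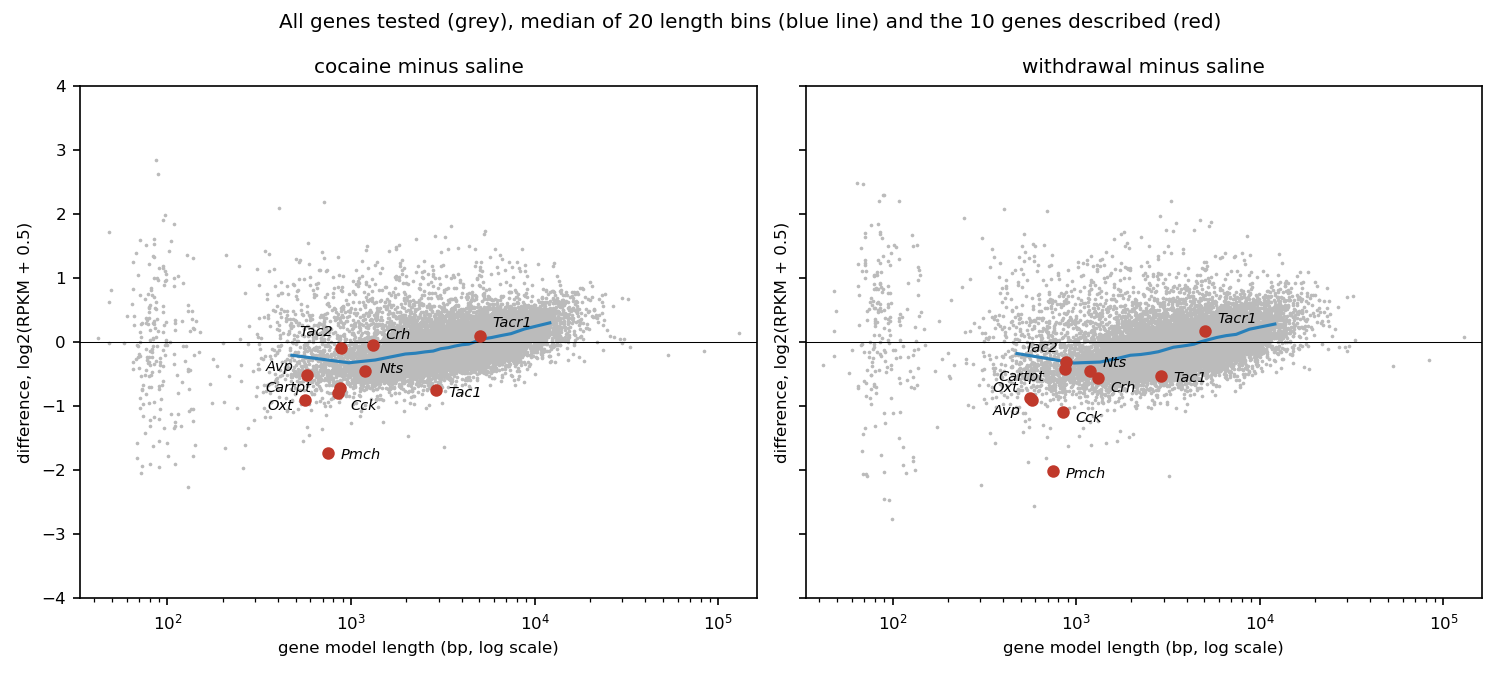
Difference in mean log2(RPKM + 0.5) (vertical axis) against gene model length in bp (horizontal log axis) for all genes tested (grey), with the median of 20 length bins as a blue line and the 10 genes in red. Tac1, Cartpt, Cck, Nts, Oxt, Avp and Pmch lie below the line in both panels, Cartpt only slightly for withdrawal minus saline. Tacr1, the longest of the 10 at 5041 bp, lies near the line.

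Some markers of neighbouring tissue were also highest in saline, and others were not. The counts of every list from here on are to be read beside all genes tested. For cocaine minus saline 2.41% of all genes were called lower and 2.93% higher, with a median of -0.05. For withdrawal minus saline 3.37% were called lower and 3.96% higher, with a median of -0.06. For withdrawal minus cocaine 0.548% were called lower and 0.47% higher, with a median of -0.01. The 16 genes of the hypothalamus list summed to 20.8 to 26.0 RPKM over the lanes of the cocaine library. They summed to 22.5 to 26.8 RPKM in withdrawal and 32.8 to 37.5 RPKM in saline. Saline lanes of this sum were thus highest, though not for every gene on the list. Of its 8 genes above 1 RPKM, 0 were called higher and 2 lower in cocaine against saline (Pomc and Gnrh1), with a median of -0.53, or -0.28 when centred by length. Pomc was not called when centred by length (-0.70). The saline lanes lifted Gnrh1 over the 1 RPKM minimum, which favours a lower call against saline. In withdrawal against saline 1 was called higher (Agrp) and 1 lower (Gnrh1), with a median of -0.29, or -0.12 when centred by length. In withdrawal against cocaine 1 was called higher (Pomc) and 0 lower, with a median of 0.04. Trh, the thyrotropin-releasing hormone precursor, had the highest level on the list and made the largest part of its sum in each library. It was at 9.95 ± 1.2 RPKM in cocaine, 10.1 ± 0.17 RPKM in withdrawal and 14.4 ± 1.3 RPKM in saline, and had no call. Sim1, a transcription factor that defines the oxytocin and vasopressin neurons of the hypothalamus, was near 0, at 0.217 ± 0.11 RPKM in cocaine, 0.197 ± 0.042 RPKM in withdrawal and 0.0769 ± 0.057 RPKM in saline. Otp, another factor of those neurons, was at 1.89 ± 0.44, 1.64 ± 0.35 and 1.79 ± 0.27 RPKM in cocaine, withdrawal and saline. Unlike Oxt and Avp, Sim1 had its lowest mean in saline, and the lanes of Otp overlapped between all libraries. Kiss1 and Rax were listed at 0 in all cocaine lanes and Nr5a1 in all withdrawal lanes. The part of hypothalamic RNA in the levels of Oxt, Avp and Pmch was not tested.

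The ratio of Oxt to Avp by lane was 2.23 to 3.15 in cocaine, 2.52 to 4.53 in withdrawal and 2.74 to 3.81 in saline, and the ranges overlapped. Oxt and Avp neighbour each other on chromosome 2. Their receptors were low: Oxtr ran from 1.49 to 1.94 RPKM in cocaine lanes, 1.22 to 1.60 RPKM in withdrawal lanes and 0.892 to 1.65 RPKM in saline lanes, and Avpr1a stayed below 1 RPKM in each library.

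For Cck, the markers of cortical glutamatergic neurons bear on the same punches. Slc17a7, the vesicular glutamate transporter VGLUT1, was called lower in both comparisons with saline, at 5.54 ± 0.45 RPKM in cocaine, 3.97 ± 0.58 RPKM in withdrawal and 18.3 ± 1.0 RPKM in saline. The other 13 cortical genes in the file summed to 33.0 to 37.4 RPKM in cocaine, 29.8 to 34.5 RPKM in withdrawal and 35.7 to 40.6 RPKM in saline, so cocaine lanes overlapped those of both other libraries and withdrawal lanes lay below all saline lanes. Within this sum Cux2 and Foxp2 were lowest in saline. Cux2 was at 9.40 ± 0.49, 9.69 ± 0.61 and 6.78 ± 0.51 RPKM in cocaine, withdrawal and saline. Foxp2 was at 5.70 ± 0.35, 6.99 ± 0.44 and 4.93 ± 0.29 RPKM in the same order. The sum without them was not taken, so the overlap may rest on them. Of the 9 cortical genes tested, 6 differed from saline in the negative direction for cocaine and 7 for withdrawal. Of 9 cortical genes tested, Slc17a7 alone was called lower in cocaine against saline, with 0 higher and a list median of -0.06, or -0.13 when centred by length. In withdrawal against saline 4 were called lower (Slc17a7, Fezf2, Nrn1 and Nov) and 0 higher, with a median of -0.52. Of all genes tested, 3.37% were called lower and 3.96% higher there, with a median of -0.06. Fezf2, a factor of deep-layer cortical neurons, was not called without withdrawal replicate 2 (-0.58), at a pseudocount of 1 (-0.56) or centred by length (-0.54). In withdrawal against cocaine Nov alone was called, lower by -0.88, and the median was -0.43. The part of cortical RNA in the level of Cck was not tested.

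Tac1 and Cartpt belong to medium spiny neurons, whose 18 list genes all passed 1 RPKM. The list summed to 1889 to 1980 RPKM in cocaine, 2271 to 2280 RPKM in withdrawal and 2444 to 2559 RPKM in saline. Penk and Ppp1r1b made up most of each sum. Without them, a choice made after seeing the data, the other 16 genes summed to 759 to 776 RPKM in cocaine, 924 to 946 RPKM in withdrawal and 827 to 858 RPKM in saline, so that cocaine stayed lowest and withdrawal was highest. Ppp1r1b, which encodes the dopamine-regulated phosphatase inhibitor DARPP-32, was the 1 gene called lower in cocaine against saline, with 0 called higher and a list median of -0.17. In withdrawal against saline Pde10a, a phosphodiesterase of spiny neurons, was called higher (0.69 ± 0.031, or 0.41 without a call when centred by length), 0 genes were called lower and the median was -0.01, or 0.07 when centred by length. In withdrawal against cocaine no gene of this list was called and the median was 0.26, with 16 of 18 differences positive. Drd1a, the D1 receptor gene of the same neurons as Tac1, differed by -0.12 ± 0.085 in cocaine and by -0.02 ± 0.083 in withdrawal, each against saline. Drd2, the D2 receptor gene of the indirect pathway, differed by -0.33 ± 0.12 in cocaine and 0.08 ± 0.10 in withdrawal, without a call. Pdyn, the dynorphin precursor of the direct-pathway neurons, differed by -0.29 ± 0.056 in cocaine and -0.03 ± 0.041 in withdrawal, without a call.

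**Figure D4:**
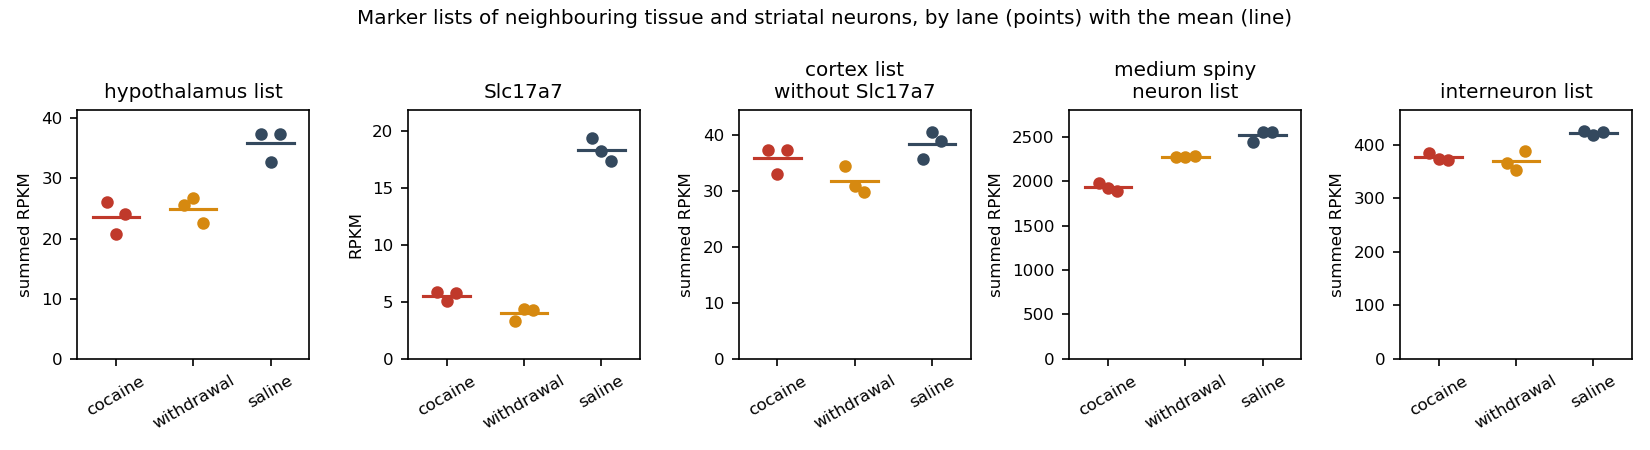
Summed RPKM of marker lists, and RPKM of Slc17a7 alone, by library (vertical axes from 0); points are lanes and lines their mean. The hypothalamus sums are 32.8 to 37.5 RPKM in saline lanes and at most 26.8 RPKM in the other libraries, Slc17a7 is highest in saline, and the medium spiny neuron sums are lowest in cocaine.

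The 11 striatal interneuron genes, read beside Tacr1, summed to 373 to 386 RPKM in cocaine, 354 to 389 RPKM in withdrawal and 420 to 427 RPKM in saline, and Sst, the somatostatin precursor, made up most of each sum. Of 10 tested, Nos1, the neuronal nitric oxide synthase, was called higher in cocaine against saline (0.61 ± 0.053, but 0.58 and no call without saline replicate 1), with 0 lower and a median of -0.04, which turned to 0.09 when centred by length. In withdrawal against saline Nos1 (0.80 ± 0.055) and Slc5a7, the choline transporter of cholinergic neurons (0.66 ± 0.11, or 0.58 and no call at a pseudocount of 1), were called higher and Calb2, the calretinin gene, lower (-0.77 ± 0.078), with a median of 0.03, or 0.12 when centred by length. Centred by length, Nos1 was called in neither comparison (0.31 and 0.52) and Calb2 was not called (-0.51). No gene of this list was called in withdrawal against cocaine, where the median was 0.05 and Slc5a7 differed most (0.39 ± 0.12).

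Of 15 genes for other receptors and binding proteins of these peptides, 11 passed 1 RPKM, and most showed no call. Crhbp, which encodes the binding protein of corticotropin-releasing hormone, was the single call, lower in both comparisons with saline, at 2.14 ± 0.57 RPKM in cocaine, 1.65 ± 0.43 RPKM in withdrawal and 3.57 ± 0.77 RPKM in saline. Its call for cocaine (-0.63 ± 0.25) ended without cocaine replicate 1 (-0.44) or saline replicate 3 (-0.49), and at a pseudocount of 1, under each centring or scaling and with the composite values; its call for withdrawal (-0.92 ± 0.23) held without each lane in turn. No receptor gene was called higher against saline, and the list medians were 0.07 for cocaine and -0.06 for withdrawal. Centred by length they were 0.22 for cocaine and 0.13 for withdrawal, so the sign for withdrawal turned. In withdrawal against cocaine none was called, the median was -0.08 and Tacr3, the neurokinin B receptor, differed most (-0.41 ± 0.10). Cckbr, the main brain receptor of cholecystokinin, was at 4.88 ± 0.55 RPKM in cocaine, 5.08 ± 0.46 RPKM in withdrawal and 4.63 ± 0.38 RPKM in saline. Ntsr2, a neurotensin receptor made by astrocytes, was the most abundant receptor of the list at 160 ± 12 RPKM in cocaine, 152 ± 18 RPKM in withdrawal and 160 ± 10 RPKM in saline.

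Of 29 other peptide precursors, 22 passed 1 RPKM. Hcrt, Agrp, Pomc, Trh, Ghrh, Gnrh1 and Kiss1 are also on the hypothalamus list. The calls of Pomc, Gnrh1 and Agrp given here are thus the same calls as above. Penk and Pdyn recur from the spiny neuron list, and Npy, Sst and Vip from the interneuron list. In cocaine against saline 0 were called higher and 2 lower (Pomc and Gnrh1), and 19 of 22 differences were negative, with a median of -0.33, or -0.14 when centred by length. In withdrawal against saline 1 was called higher (Agrp) and 3 lower (Nmb, Ucn3 and Gnrh1), with a median of -0.27, or -0.07 when centred by length. Centred by length, Nppc, the precursor of C-type natriuretic peptide, was called higher in cocaine (0.78) and in withdrawal (0.81), each against saline; it was chosen after its values were seen. Ucn3, the urocortin 3 precursor, passed the 1 RPKM minimum only through saline, at 0.800 ± 0.34 RPKM in cocaine, 0.852 ± 0.21 RPKM in withdrawal and 1.61 ± 0.44 RPKM in saline, which favours a lower call. The saline lanes also lifted Gnrh1 over this minimum. Nmb, the neuromedin B precursor (-0.89 ± 0.46), was not called without withdrawal replicate 1 (-0.50), with the median set to 0 (-0.83), at the same 75th percentile (-0.82) or centred by length (-0.56). The call of Ucn3 (-0.64 ± 0.22) ended without withdrawal replicate 2 (-0.56), withdrawal replicate 3 (-0.58) or saline replicate 3 (-0.49), where it missed the 1 RPKM minimum. It also ended with the median set to 0 (-0.58), at the same 75th percentile (-0.58), centred by length (-0.33) and at a pseudocount of 1 (-0.49). In withdrawal against cocaine Pomc alone was called, higher by 0.83 ± 0.34, and the median was 0.02. Gnrh1 differed most there (-1.10 ± 0.86), with overlapping lanes. Penk, the enkephalin precursor of the other class of spiny neurons, differed by -0.39 ± 0.054 in cocaine and by -0.28 ± 0.033 in withdrawal, each against saline and without a call.

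The genes most like Tac1, Cartpt and Cck were sought among the 11254 genes of at least 3 RPKM by the root mean square distance of centred log2 values over the 9 lanes, which come from 3 libraries. Among the 10 genes themselves the closest pair was Tac1 with Cartpt, at a distance of 0.11, and the next was Cck with Avp at 0.22. Nearest to Tac1 were Nme2, a nucleoside diphosphate kinase (0.07), Drap1, a corepressor of transcription (0.08), and Rpl27, a ribosomal protein (0.08). Ribosomal protein genes have processed pseudogenes, and whether reads were split with them was not tested, so the level of Rpl27 is uncertain. Nearest to Cartpt were Tceal6 (0.08), Atp5g2, a subunit of ATP synthase (0.08), and Ppp1r1b (0.09). For Cck the nearest were farther off, at 0.20 for Usmg5, a small protein of the ATP synthase, 0.20 for Eif2s2, a translation initiation factor subunit, and 0.20 for Rdm1. The distances used values not centred by length. The models of these neighbours ran from 348 bp (Usmg5) to 3123 bp (Eif2s2), all under the median of 3531 bp over all genes tested. The part of length in the likeness was not tested.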

How the data were processed

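The values are RPKM as deposited by the authors, per lane and as 1 composite per library, and the files state lane and library totals, per the file headers. The submitters' processing notes list Bowtie 0.12.7 and mm9. Which counter and which annotation made the RPKM is not given in the sources used here. Per the labels' protocols, poly(A) RNA was fragmented, reverse-transcribed from random primers and sequenced for 37 cycles from each end of inserts of about 200 bp. Lane totals ran from 5546362 to 12026754, with library totals of 24219333 in cocaine, 19452882 in withdrawal and 26006605 in saline; 1 read in a gene of the median length of the 10 was worth 0.0946 to 0.205 RPKM in a lane. Across genes, lanes of a library had a median log2 SD of 0.114 to 0.130.

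Genes were compared as means of log2(RPKM + 0.5) over 3 lanes, which understates changes of low genes, for the 14051 genes whose 9-lane mean reached 1 RPKM. A call needed at least 1.5 times and lanes apart. No p-value was computed, since n was 1 library per treatment. Gene model lengths, and so reads, were recovered as the smallest length at which all 9 lanes gave whole multiples of 1/37 of a read (relative tolerance 2e-13), and were multiplied by 37 for 108 genes (14 tested) where the reference length asked for it or the length was under 37 bp. Reads were not whole, so count tests were not run. Length centring set the median of each of 20 length bins to 0. The 10 genes, the lists and the tests were chosen with earlier results of these data known. Named genes were the 10 genes, Slc17a7, Ppp1r1b, Drd1a, Drd2, Penk and Pdyn, the called and the largest differences of each list, and the 3 nearest of each likeness search. Not all are named, and receptors, Sim1, Otp, Trh, Sst, Cux2, Foxp2, Nppc and genes listed at 0 lie outside this rule. Cux2 and Foxp2 were named after their values were seen. Promoters were taken from RefSeq GRCm38.p6 for 9 of 10 genes; Crh was not matched. The call rule was tested on simulated lanes that held the spread between lanes only. They had no spread between libraries or animals and no trend with length, so they cannot judge the rule for treatment differences. Python 3.11.15, numpy 2.4.6, pandas 2.3.3, scipy 1.17.1 and matplotlib 3.10.9 were used.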

Additional observations from a re-analysis of the deposited data

How the results depend on the processing

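The alternatives were a pseudocount of 0.1 or 1, no filter or one of 5 RPKM (where Pmch was not tested), a smaller size limit and one of 2 times, no condition on lanes, median and 75th percentile scaling, composite values, length centring, a lane-number block and each lane left out. For cocaine minus saline the count called lower moved from 5 to 1 at 2 times and to 3 when centred by length, and was 6 at the smaller limit and 5 to 6 over the lanes left out. For withdrawal minus saline it moved from 4 to 7 at the smaller limit and 2 at 2 times, with 4 to 5 over the lanes left out, and for withdrawal minus cocaine from 0 to 1 at the smaller limit and to 1 without cocaine replicate 2 (0 to 1 over the lanes left out). Every gene of the 10 called against saline kept its call without each lane in turn.

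Differences that changed sign all belonged to genes without a call. For cocaine minus saline these were Tac2 centred by length (0.22), Tacr1 without saline replicate 3 (-0.043 to 0.20 over the lanes left out) and Crh with the median set to 0 (0.0053), at the 75th percentile (0.026), centred by length (0.24) and without 1 lane (-0.14 to 0.066). For withdrawal minus saline it was Tac2 centred by length (0.0083). For withdrawal minus cocaine they were Tacr1 without 1 lane (-0.014 to 0.13), Nts with composite values (0.0028), centred by length (0.0023) and without 1 lane (-0.16 to 0.12), Pmch with composite values (0.011) and without 1 lane (-0.81 to 0.30), and Oxt with composite values (-0.013), centred by length (-0.016) and without 1 lane (-0.11 to 0.20). The cause was not tested.

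The lane numbers pair no samples: deviations of same-numbered lanes correlated at -0.05 to 0.08 across genes, other lanes at -0.06 to 0.04. With lanes paired by number as a replicate block, the counts called lower stayed 5 for cocaine minus saline, 4 for withdrawal minus saline and 0 for withdrawal minus cocaine, and no call of the 10 genes changed.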

Other observations

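Gnrh1, the precursor of gonadotropin-releasing hormone, which is made by scattered neurons of the septum and preoptic area, had 2.51, 0 and 1.55 RPKM in the lanes of the cocaine library, 0.610, 0 and 0.0629 RPKM in withdrawal and 3.12, 3.04 and 4.44 RPKM in saline. Every saline lane lay above every other lane, and the difference was -1.45 ± 0.80 for cocaine and -2.55 ± 0.39 for withdrawal, each against saline. Mean levels of Gnrh1 were 1.35 ± 1.3 RPKM in cocaine, 0.224 ± 0.34 RPKM in withdrawal and 3.53 ± 0.78 RPKM in saline. The saline lanes lifted its mean over the 1 RPKM minimum, which favours a lower call against saline. Pomc, the precursor of beta-endorphin and melanocortins, had 1.99, 0.715 and 1.86 RPKM in cocaine, 3.16, 2.64 and 3.01 RPKM in withdrawal and 2.91, 2.20 and 5.98 RPKM in saline. Its cocaine lanes were lowest, and the call of withdrawal against cocaine ended without cocaine replicate 2 (0.50). Agrp, a feeding peptide precursor of the arcuate nucleus, averaged 1.20 ± 0.79 RPKM in cocaine, 2.25 ± 0.38 RPKM in withdrawal and 1.17 ± 0.13 RPKM in saline (SD over 3 lanes). It was called higher in withdrawal against saline (0.72 ± 0.14), though not at a pseudocount of 1 (0.58). All are under 6 RPKM in each lane, and no library was repeated.

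Adora2a, an adenosine receptor gene of the Penk-expressing spiny neurons, had 64.1, 64.0 and 64.4 RPKM in cocaine, 93.3, 89.5 and 89.2 RPKM in withdrawal and 86.5, 93.1 and 94.6 RPKM in saline. Its withdrawal and saline lanes overlapped and its cocaine lanes lay below both. The difference was -0.51 ± 0.040 for cocaine minus saline and 0.50 ± 0.021 for withdrawal minus cocaine, short of 1.5 times.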
